A study of Mus musculus with 6 samples.

Results

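The proteasome genes of germinal centre B cells were followed through messenger RNA libraries of mice with and without Basp1 in their B cells. Members were all rows of the deposited tables whose symbol begins with Psma, Psmb, Psmc, Psmd, Psme, Psmf or Psmg followed by a digit, which gave 49 of 23420 genes. Of these, 5 were the interferon-inducible subunits Psmb8, Psmb9, Psmb10, Psme1 and Psme2, and 44 were the other members. The rule also took in Psmc3ip, which shares the start of a symbol but encodes a partner of the meiotic recombinase and no proteasome subunit. A mean of at least 1 CPM (counts scaled to a common library total) over the libraries was reached by 47 members, which were tested, and 2 were not.

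The cells were sorted from spleen on day 10 after intraperitoneal immunization with NP-KLH. All mice carried hCD20TamCre+/-, a Cre driven in B cells that tamoxifen activates, and all received 1 mg tamoxifen on day 5, day 7 and day 9. The KO group was BASP1 fl/fl and the WT group BASP1 +/+, with 3 libraries in each, numbered 1 to 3. Age, sex and the number of mice behind a library are not given in the labels. The p-values therefore speak only for the spread between these libraries, most of it estimated from other genes. Basp1 lay at 5.49, 5.90 and 5.53 log2 CPM in WT 1, 2 and 3 and at 3.27, 2.86 and 3.23 in KO 1, 2 and 3, a fold change of -2.51 ± 0.45 on the log2 scale (SD, n = 3 pairs), so the libraries matched their labels and 8.70 CPM were still counted in KO. The gene spans 25363277 to 25413764 of chromosome 15 (GRCm38, minus strand). Read depth is unknown, because the values had been scaled before deposit: they summed to between 997617 and 1000513 CPM per library. Within each replicate number the sum of the WT and the KO value was the same for all numbers, to within 0.001 for every gene, so each gene carries a mean and 3 paired differences (KO minus WT), called pairs 1, 2 and 3 here. Under this constraint the groups fail to overlap exactly where all 3 pairs go the same way. The highest and the lowest library of a gene likewise always belong to the same pair, the pair with the largest difference.

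The 11 markers of germinal centre B cells were all above 1 CPM, with summed levels of 10049 to 10225 CPM in WT and 9708 to 9866 in KO and median differences of -0.107, -0.076 and -0.032 in pairs 1, 2 and 3. Of the T cell list 6 of 7 listed markers were under 1 CPM, Cd3e, Cd3d and Cd3g among them, and the list summed to 4.02 to 5.24 CPM over all libraries. All 6 neutrophil, 4 natural killer cell and 6 erythroid or platelet markers were under 1 CPM. The macrophage and dendritic cell list summed to 102 to 109 CPM in WT and 90.4 to 98.2 in KO, with 8 of 10 listed markers under 1 CPM, Csf1r and Itgax among them, and its 2 tested genes had median differences of -0.102, -0.214 and -0.859. The plasma cell list summed to 2104 to 2315 CPM in WT and 1973 to 2159 in KO, with Sdc1 and Tnfrsf17 under 1 CPM and median differences of 0.376, 0.451 and 0.126 among its 4 tested genes. The naive or follicular B cell list had a median difference of -0.284, 0.603 and -0.259 in pairs 1, 2 and 3, and the nuclear and non-coding RNA list one of 0.046, -0.416 and 0.25. Their part in the results was not tested.

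The proteasome is a barrel-shaped protease that degrades proteins tagged with ubiquitin. Its core particle stacks rings of alpha subunits around rings of beta subunits, and the beta5, beta1 and beta2 subunits carry the active sites; a regulatory particle with a ring of ATPases unfolds the substrate and feeds it in. In cells exposed to interferon, and constitutively in many lymphocytes, Psmb8, Psmb9 and Psmb10 replace Psmb5, Psmb6 and Psmb7 in newly built core particles, which changes the peptides released for MHC class I. Psme1 and Psme2 form the PA28 activator that docks on such particles. The transcription factor NRF1 raises the constitutive genes together when proteasome activity is short, while IRF1 acts on the inducible genes.

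Promoter windows were searched because these routes work through known DNA elements. RefSeq windows (GRCm38.p6, 250 bases before to 50 after the start) were held for 41 of the 49 members. The letters searched, on both strands, were GAAANNGAAA for the interferon-stimulated response element, TTCNNNGAA for the gamma-activated site, and TGACNNNGC for the antioxidant response element that NRF1 binds. The first was found in 5 of 41 members (3.44% of all 32851 windows), the second in 3 (8.3% of all windows) and the third in 6 (12.4% of all windows). Members were counted per gene and the background per window, so these shares are in unlike units and cannot show enrichment. Of the 5 inducible genes, Psme1 held the first, Psmb8 the second and none the third. Among the other 36 members the first was held by 4 (Psmb3, Psmd4, Psmd9 and Psmg4) and the second by 2 (Psmd2 and Psmg1). The third was held by 6 of these 36 (Psmb5, Psmb6, Psmc6, Psmd12, Psmd9 and Psme4). A match is a description of letters and not a bound site. The windows of Psmb8, Psmb9 and Psme1 lie wholly inside the spans that GENCODE gives these genes. Bases before their outermost annotated start were therefore not searched, and a window without a match says nothing about them. The windows of 4 genes are given 5′ to 3′ on the gene's strand, with the matches in capitals (that of Psme1 reads as the reverse complement): Psmb8 (chr17:34197945-34198244, plus strand, match from -97 to -89 relative to the start), Psme1 (chr14:55578244-55578543, plus strand, match from 10 to 19 past the start), Psmb5 (chr14:54617946-54618245, minus strand, match from -47 to -39) and Psmb9 (chr17:34187281-34187580, minus strand, no match), the last because it shares its promoter region with the peptide transporter gene Tap1.
Psmb8: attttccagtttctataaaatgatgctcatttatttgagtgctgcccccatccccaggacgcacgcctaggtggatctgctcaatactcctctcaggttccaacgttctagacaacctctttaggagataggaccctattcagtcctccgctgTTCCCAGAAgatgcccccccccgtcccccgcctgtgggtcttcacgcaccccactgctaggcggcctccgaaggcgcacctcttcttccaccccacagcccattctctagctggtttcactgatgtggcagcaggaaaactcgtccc
Psme1: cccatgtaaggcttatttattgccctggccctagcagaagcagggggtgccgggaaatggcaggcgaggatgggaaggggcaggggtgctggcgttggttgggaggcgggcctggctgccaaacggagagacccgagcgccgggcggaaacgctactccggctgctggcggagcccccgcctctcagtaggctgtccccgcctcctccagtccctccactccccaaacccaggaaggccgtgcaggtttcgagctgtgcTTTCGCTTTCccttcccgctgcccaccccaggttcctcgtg
Psmb5: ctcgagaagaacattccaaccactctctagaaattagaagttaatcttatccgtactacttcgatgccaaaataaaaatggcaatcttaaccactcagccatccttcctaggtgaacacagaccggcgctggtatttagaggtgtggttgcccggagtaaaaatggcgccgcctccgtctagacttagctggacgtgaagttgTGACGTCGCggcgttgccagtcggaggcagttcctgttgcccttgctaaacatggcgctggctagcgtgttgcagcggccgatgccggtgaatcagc
Psmb9: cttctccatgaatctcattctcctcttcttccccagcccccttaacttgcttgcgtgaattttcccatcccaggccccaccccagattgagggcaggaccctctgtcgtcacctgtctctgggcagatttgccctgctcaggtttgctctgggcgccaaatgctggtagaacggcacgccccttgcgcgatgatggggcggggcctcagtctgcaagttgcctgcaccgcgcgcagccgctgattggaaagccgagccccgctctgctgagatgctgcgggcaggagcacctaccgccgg

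Together the 49 members took 1.41% to 1.47% of the listed CPM in the WT libraries and 1.42% to 1.48% in the KO libraries. The inducible genes made up 19.03% to 19.48% of the members' CPM in WT and 19.07% to 19.54% in KO. To compare levels between genes, CPM were divided by the length of the main GENCODE transcript. The median tested member lay at 167 CPM per kb, against 10.9 for all tested genes with a length. Levels per kb depend on which transcript is taken as the main one.

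Psmb8, the inducible beta5 subunit, had the highest level per kb of all 49 members at 889 CPM per kb. The gene lies in the major histocompatibility complex on the plus strand of chromosome 17, from 34197721 to 34201454 (GRCm38), with 6 exons in its main transcript. Its values were 10.48, 10.48 and 10.55 log2 CPM in WT 1, 2 and 3 and 10.52, 10.52 and 10.45 in KO 1, 2 and 3. The ranges overlapped, with KO 3 the lowest library and WT 3 the highest. The fold change was -0.008 ± 0.084 (SD, n = 3 pairs; 95% interval -0.12 to 0.11; limma adjusted p = 0.989). Its constitutive counterpart Psmb5 (chromosome 14, 54614119 to 54618022, minus strand) stood at 255 CPM per kb. Psmb5 read 7.80, 7.84 and 7.94 log2 CPM in WT and 7.88, 7.84 and 7.74 in KO, again with overlapping ranges (fold change -0.046 ± 0.146; limma adjusted p = 0.925). Psmb8 thus stood 3.44-fold above Psmb5 per kb in WT and 3.53-fold in KO, and the log2 ratio differed between KO and WT by 0.038 ± 0.067 over the pairs.

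At the beta1 site the level per kb was higher for the constitutive gene. Psmb9, the inducible beta1 subunit, is encoded beside Psmb8 (chromosome 17, 34181987 to 34187764, minus strand), and its exons overlap those of Tap1 on the other strand by 212 bases. Whether counting used strand is not stated in the labels, so it is unknown whether reads of Tap1 and Psmb9 there were told apart. Psmb9 read 8.65, 8.74 and 8.81 log2 CPM in WT and 8.81, 8.72 and 8.65 in KO, so the groups covered the same range (fold change -0.008 ± 0.163; 95% interval -0.14 to 0.13; limma adjusted p = 0.990). Its counterpart Psmb6 read 8.70, 8.72 and 8.79 in WT and 8.85, 8.83 and 8.77 in KO, with a fold change of 0.077 ± 0.088 (adjusted p = 0.818). Per kb, Psmb9 stood at 0.589 of the Psmb6 level in WT and at 0.556 in KO, while the CPM ratio with no division by length was 0.999 in WT, so this direction rests on the lengths.

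Psmb10, the inducible beta2 subunit (chromosome 8, 105935735 to 105938444, minus strand), read 7.72, 7.73 and 7.81 log2 CPM in WT and 7.82, 7.81 and 7.73 in KO. The groups overlapped, and the fold change was 0.038 ± 0.100 (SD, n = 3 pairs; 95% interval -0.11 to 0.18; limma adjusted p = 0.944). Its counterpart Psmb7 read 7.02, 7.06 and 7.02 in WT and 7.03, 6.99 and 7.03 in KO (fold change -0.018 ± 0.048; adjusted p = 0.980). Psmb10 stood 1.45-fold above Psmb7 per kb in WT and 1.51-fold in KO. Exons of Psmb7 overlap those of Nek6 on the other strand by 405 bases, and whether reads there were told apart is likewise unknown. With the summed length of all annotated exons in place of the main transcript, the WT ratios were 1.66 for Psmb8 over Psmb5, 0.511 for Psmb9 over Psmb6 and 3.29 for Psmb10 over Psmb7. The order within each couple held under both lengths, and the sizes did not: the beta5 couple had the widest ratio by main transcript and the narrowest by summed exons.

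**Figure D1:**
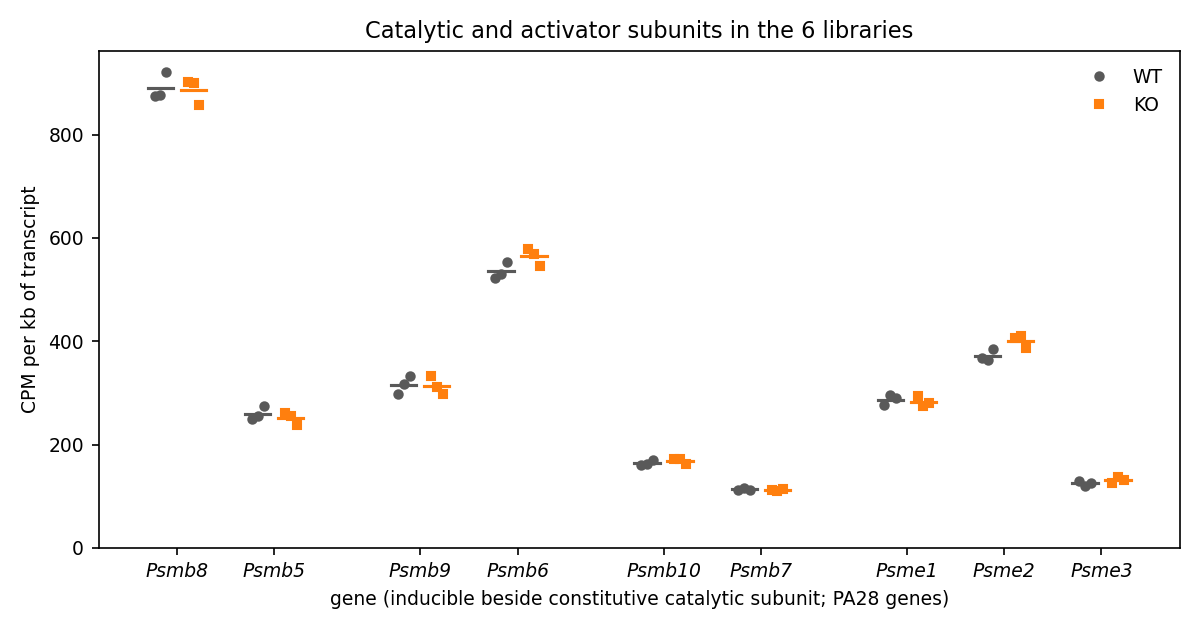
CPM per kb of main transcript (vertical axis, from 0) in each WT library (grey circles) and KO library (orange squares), with geometric means as bars, for the catalytic subunits in inducible and constitutive couples and for the PA28 genes. Psmb8 lies near 889 CPM per kb in both groups, and of the genes plotted only Psme2 has all KO libraries above all WT libraries.

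The PA28 genes lie near each other on chromosome 14, Psme1 from 55578123 to 55581529 and Psme2 from 55587441 to 55591113. Psme1, the alpha subunit, read 8.26, 8.36 and 8.33 log2 CPM in WT and 8.35, 8.25 and 8.28 in KO, with overlapping groups (fold change -0.020 ± 0.103; limma adjusted p = 0.970). Psme2, the beta subunit, read 8.46, 8.45 and 8.53 in WT and 8.61, 8.62 and 8.54 in KO. Each KO value of Psme2 was above each WT value, by 0.148, 0.176 and 0.012 within the pairs. The fold change of 0.112 ± 0.088 (SD, n = 3 pairs; 95% interval -0.02 to 0.25) did not pass the test over all genes (limma adjusted p = 0.701). No other inducible gene had the groups apart. Over the 5 inducible genes the 95% intervals ran from -0.16 at the lowest to 0.25 at the highest.

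The activators and the inhibitor outside the inducible set also overlapped between groups. Psme3, the PA28 gamma subunit of the nucleus, read 8.44, 8.32 and 8.38 log2 CPM in WT and 8.39, 8.51 and 8.45 in KO (fold change 0.073 ± 0.112; limma adjusted p = 0.840). Psme4, the large activator PA200, was the lowest tested member at 2.42 CPM per kb. It read 3.972, 4.147 and 4.055 in WT and 3.976, 3.802 and 3.894 in KO (fold change -0.17 ± 0.17; adjusted p = 0.799). Psmf1, the inhibitor PI31, read 6.78, 6.77 and 6.82 in WT and 6.83, 6.84 and 6.79 in KO (fold change 0.032 ± 0.052; adjusted p = 0.954).

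Across all tested members, 0 of 47 rose and 0 of 47 fell in KO at 5% FDR in limma, against 0.168% and 0.0987% of the 10133 tested genes. At an unadjusted p under 0.05, 0 members were higher and 1 was lower, against 4.16% and 4.66% of all tested genes. With all 3 pairs in agreement, 4 members were higher in KO (Psmb4, Psmd1, Psmd5 and Psme2) and 3 were lower (Psmc1, Psmc3ip and Psmd12). Of all tested genes 15.2% were higher and 12.5% lower in this sense, so both shares of members lay below the background. The members' fold changes had a median of -0.008 and ran from -0.21 to 0.19, beside a median of 0.0037 for all tested genes. The 95% interval lay inside -0.3 to 0.3 for 44 of the 47 members, and the exceptions were Psmc3ip, Psme4 and Psmg4, the 3 tested members with the lowest CPM.

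**Figure D2:**
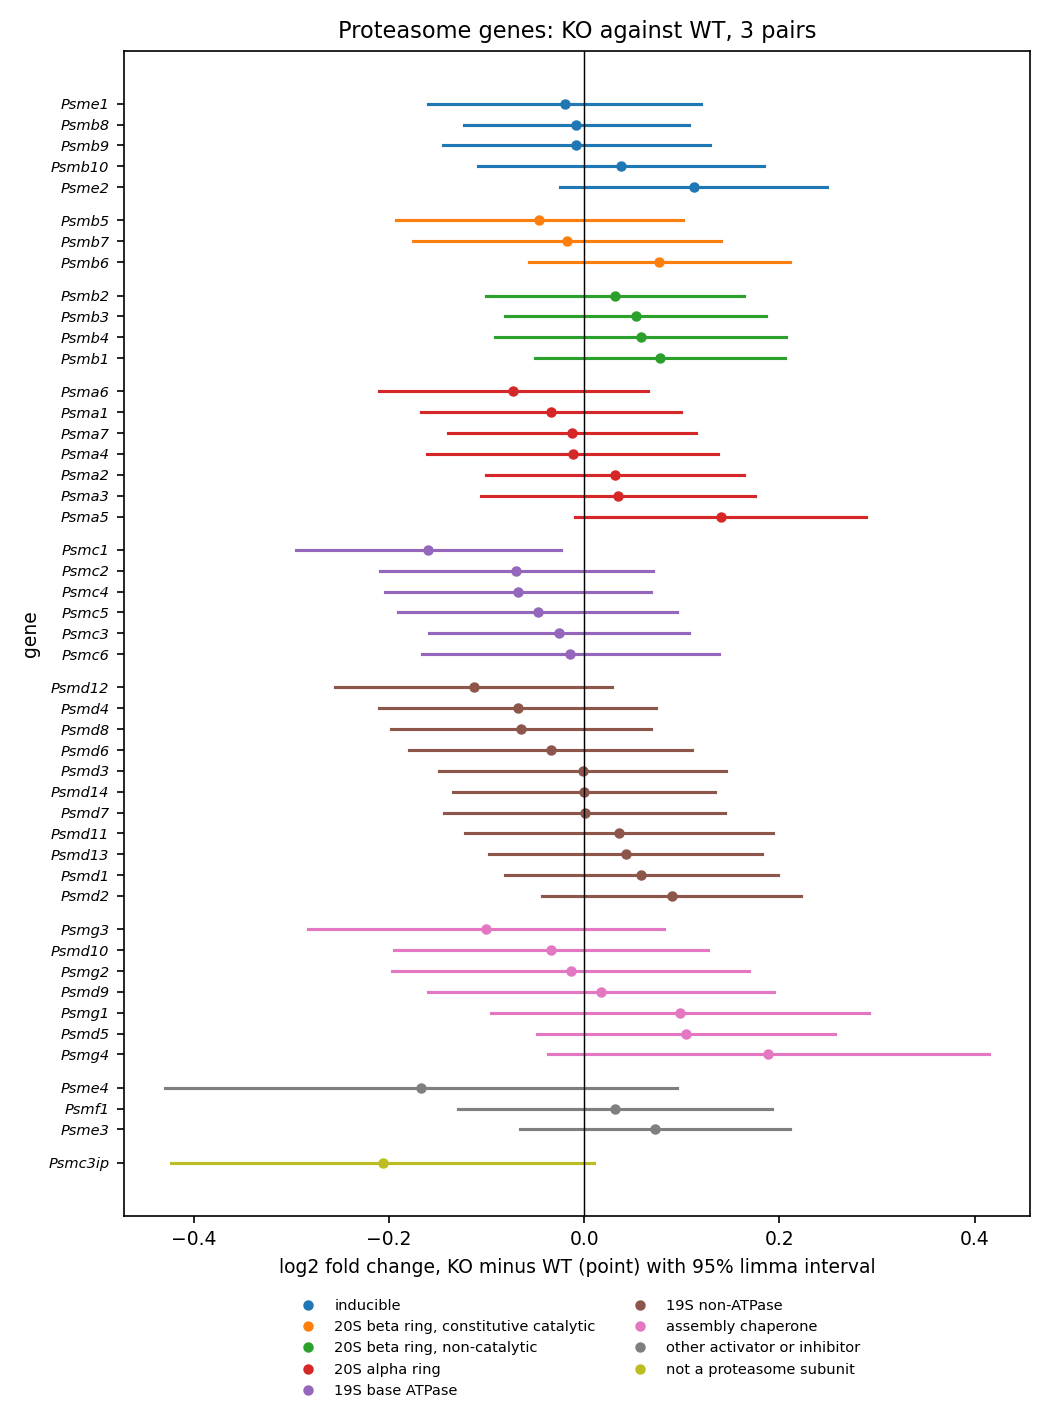
Log2 fold change of KO against WT (points, horizontal axis) with 95% limma intervals (lines) for the 47 tested members, 1 gene per row, coloured by role. All intervals but that of Psmc1 include 0, and the fold changes run from -0.21 to 0.19.

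In the alpha ring, which gates the core particle, 3 of 7 tested genes had a positive and 4 a negative fold change. Psma5 differed most: it read 7.59, 7.69 and 7.76 log2 CPM in WT and 7.91, 7.81 and 7.75 in KO. KO 1 was the highest library and WT 1 the lowest, and the groups overlapped through KO 3 (fold change 0.14 ± 0.16; limma adjusted p = 0.617). By main transcript, Psma7 had the highest level of these 7 genes at 695 CPM per kb and Psma3 the lowest at 117. By summed exons Psma6 stood above Psma7, at 298 against 207 CPM per kb. All 4 non-catalytic beta genes were on the positive side, between 0.032 for Psmb2 and 0.078 for Psmb1, as were 5201 of all 10133 tested genes. Psmb1 read 9.18, 9.19 and 9.25 in WT and 9.31, 9.30 and 9.24 in KO (adjusted p = 0.815).

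The ATPases of the regulatory particle were all on the negative side, 6 of 6, with a median of -0.058. Of all 10133 tested genes 4924 were negative, and in pair 1 alone 3 of the 6 ATPases were higher in KO. Psmc1, which encodes the ATPase Rpt2 (chromosome 12, 100110154 to 100123405, plus strand), was the member with the smallest p. It read 8.64, 8.72 and 8.69 log2 CPM in WT and 8.57, 8.48 and 8.52 in KO, so all KO libraries lay below all WT libraries. Its fold change was -0.16 ± 0.09 (SD, n = 3 pairs). With an unadjusted limma p of 0.0215 it did not pass over all genes (limma adjusted p = 0.418). The other ATPases lay between -0.070 for Psmc2 and -0.014 for Psmc6, and their median was near 0 in pair 1 and negative in pairs 2 and 3 when Psmc1 was included (0.006, -0.11 and -0.0995).

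Of the 11 non-ATPase genes of the regulatory particle, 5 were positive and 5 negative, and Psmd14, the deubiquitinase Rpn11, had equal group means. Psmd12 had the smallest p among them: it read 8.10, 8.15 and 8.15 log2 CPM in WT and 8.05, 8.01 and 8.01 in KO, without overlap (fold change -0.11 ± 0.05; limma adjusted p = 0.716). Psmd2, the scaffold Rpn1, stood at the other end with 0.090 ± 0.117 (adjusted p = 0.778). Of the 7 assembly chaperones, which build the particles and are not part of them, 4 were positive. Psmg4, the PAC4 chaperone, read 4.45, 4.50 and 4.62 in WT and 4.79, 4.74 and 4.62 in KO. Its groups overlapped by a few thousandths, since pair 3 differed by -0.005 (fold change 0.19 ± 0.18; adjusted p = 0.692). The chaperones lay between 22.1 and 80.4 CPM per kb.

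Psmc3ip, the member that is no subunit, read 4.84, 5.06 and 4.91 log2 CPM in WT and 4.82, 4.60 and 4.75 in KO. The KO libraries lay below the WT libraries, and the fold change of -0.21 ± 0.22 was the most negative among the tested members (limma adjusted p = 0.608). Its exons overlap those of Mlx on the other strand by 385 bases. The untested members were tissue-restricted. Psma8, the testis alpha subunit, lay between -2.64 and -0.98 log2 CPM in the 6 libraries. Psmb11, the beta5 subunit of thymic epithelium, lay between -5.33 and -4.53.

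Taken by replicate number, the members shifted jointly in pairs 1 and 3, in opposite directions. In pair 1, 38 of 47 members were higher in KO, with a median of 0.071, where 50.3% of all tested genes were higher. In pair 2, 23 members were higher, with a median of -0.004 (52.1% of all tested genes). In pair 3, 9 members were higher, with a median of -0.074 (50.7% of all tested genes). The medians of all tested genes were 0.003, 0.011 and 0.004. The alpha ring showed this most fully, with 7 of 7 genes higher in pair 1 and 0 of 7 in pair 3, and the chaperones had 7 of 7 and 1 of 7.

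The inducible genes followed the rest. Their median was 0.105, 0.037 and -0.077 in pairs 1, 2 and 3, beside 0.0565, -0.004 and -0.071 for the other 42 tested members. The inducible median less the other median was thus 0.0485, 0.041 and -0.006, or 0.028 ± 0.030 (SD, n = 3 pairs), a difference within its spread. Pair 3 had the opposite sign, and pairs 1 and 2 alone gave 0.045 ± 0.005 (SD, n = 2 pairs). With means in place of medians the difference was 0.026 ± 0.031 (SD, n = 3 pairs). The median fold change was -0.008 for the inducible genes and -0.0065 for the other members, so the sign depends on the summary. No test was made of this difference. Of the 5 inducible genes 5 were higher in pair 1, 3 in pair 2 and 1 in pair 3.

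Proteasome transcripts are short, with a median of 1430 bp against 2880 bp for the tested genes with a length, and the pairs differed in how length went with the paired difference. Across 10074 genes, which are not independent replicates, the Spearman correlation of length and difference was -0.274 in pair 1, -0.0784 in pair 2 and 0.265 in pair 3. The shortest of 4 length classes of equal size had medians of 0.082, 0.017 and -0.083, close to the members' 0.071, -0.004 and -0.074. With the trend over length taken out in each pair, a step added after the data were seen, the members' medians became 0.017, -0.011 and -0.013, and 29, 21 and 20 of 47 were higher in KO. The inducible less other difference was then 0.028, 0.042 and 0.035 in pairs 1, 2 and 3, or 0.035 ± 0.007 (SD, n = 3 pairs). It was above 0 in every pair, unlike the value without this step, and was not tested.

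**Figure D3:**
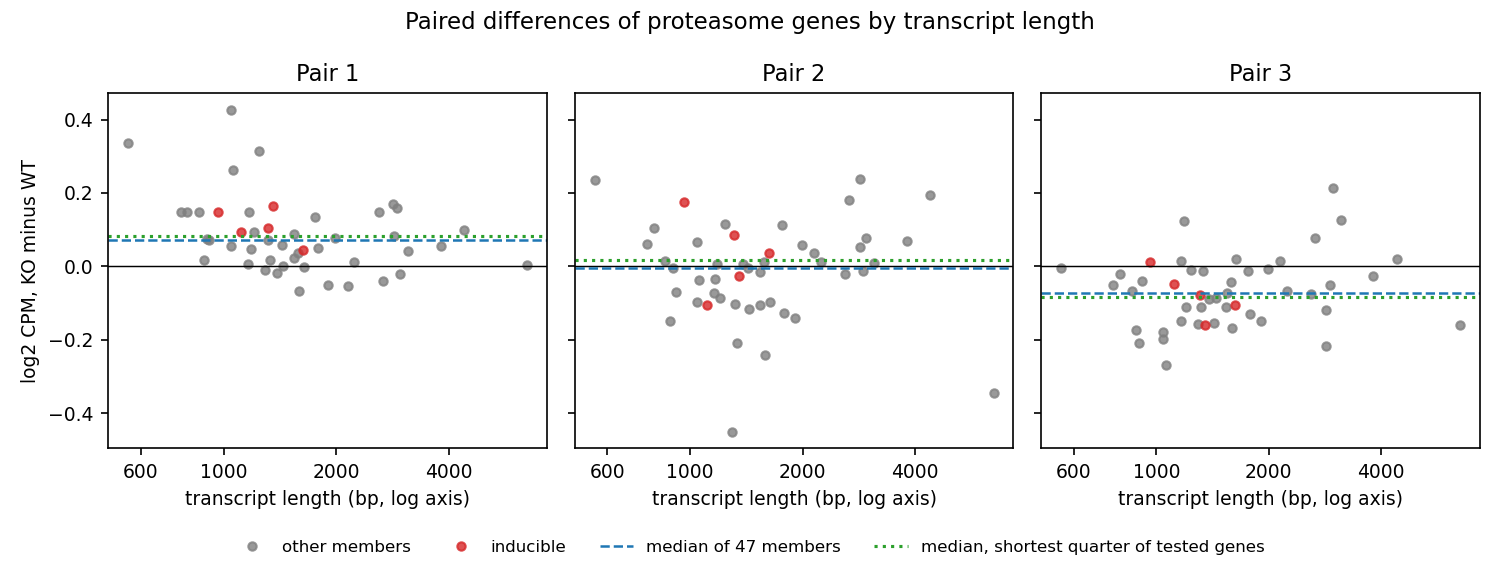
Paired difference in log2 CPM (KO minus WT, vertical axis) of the 47 tested members against transcript length (log axis), 1 panel per replicate number, with inducible genes in red. The dashed line is the members' median (0.071, -0.004 and -0.074) and the dotted line that of the shortest of 4 length classes of all tested genes (0.082, 0.017 and -0.083), and both lines lie above 0 in pair 1 and below 0 in pair 3.

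Genes that act with the proteasome were looked at through lists. Beside them, 4.16% of all tested genes were higher and 4.66% lower at an unadjusted limma p under 0.05. Of 18 tested partners outside the Psm names, 0 rose and 0 fell at 5% FDR and 0 had an unadjusted p under 0.05, with a median of 0.0023. Pomp, the maturation factor of the core particle, differed by -0.011 ± 0.084, and Usp14, the deubiquitinase of the regulatory particle, by 0.097 ± 0.017 (limma adjusted p = 0.795). Shfm1, the small subunit now named Sem1, differed by 0.082, Ubqln4, a shuttle factor, by 0.13, and Adrm1, the ubiquitin receptor Rpn13, by -0.070. Of 8 genes of the NRF1 axis 0 passed 5% FDR, 1 was higher (Vcp) and 0 lower at an unadjusted p under 0.05, and 4 were positive. Nfe2l1, which encodes NRF1 itself, differed by -0.035 ± 0.150. Vcp, the segregase that pulls NRF1 from the endoplasmic reticulum, was higher in all 3 pairs by 0.14 ± 0.08 (adjusted p = 0.461). The small MAF gene Mafg differed by -0.64 ± 0.10 near 1 CPM (adjusted p = 0.650), Mafk by 0.13 and Ngly1 by 0.043.

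Of 13 interferon signalling genes, 0 passed 5% FDR in limma. At an unadjusted p under 0.05, 4 were higher and 1 lower (4.16% and 4.66% of all tested genes), and the list's median was -0.012. Those higher were Irf1, Nlrc5, Ifngr2 and Socs1, and the lower was Jak2. Irf1, which encodes the factor that binds interferon response elements, read 4.82, 4.90 and 4.95 log2 CPM in WT and 5.37, 5.28 and 5.24 in KO. All KO libraries lay above all WT libraries, by 0.40 ± 0.13 (SD, n = 3 pairs; adjusted p = 0.0515, and from 0.0321 to 0.702 over 11 other settings, of which 5 passed). Nlrc5, the activator of MHC class I genes, differed by 0.37 ± 0.21 in the same direction in all pairs (limma adjusted p = 0.364). Ifngr2, a chain of the interferon-gamma receptor, differed by 0.23 ± 0.37 (adjusted p = 0.501), with -0.05, 0.647 and 0.105 in pairs 1, 2 and 3. Without pair 2 its fold change was 0.0275. Socs1 had pair differences of -0.045, 0.598 and 0.093, so both genes rested mostly on pair 2. Jak2 went the other way, with 4.28, 4.76 and 4.53 in WT and 4.39, 3.91 and 4.14 in KO (-0.38 ± 0.48; adjusted p = 0.333), and passed only without pair 1 (adjusted p = 0.00966). In these libraries the differences of Irf1 and Nlrc5 stood beside differences of -0.02 to 0.11 among the inducible subunits.

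The 10 peptide loading genes had 0 calls at 5% FDR, 8 positive fold changes and a median of 0.066. At an unadjusted p under 0.05, 1 gene was higher (Tapbp) and 0 lower (4.16% and 4.66% of all tested genes). Tap1, the neighbour of Psmb9, was higher in all 3 pairs by 0.098 ± 0.024 (limma adjusted p = 0.774), whereas Psmb9 had pair differences of 0.163, -0.026 and -0.161. Tapbp, the tapasin gene, differed by 0.18 ± 0.24 (adjusted p = 0.409), with 0.038, 0.46 and 0.041 in pairs 1, 2 and 3. Without pair 2 its fold change was 0.0395. H2-K1 differed by 0.10 and Calr by -0.091.

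**Figure D4:**
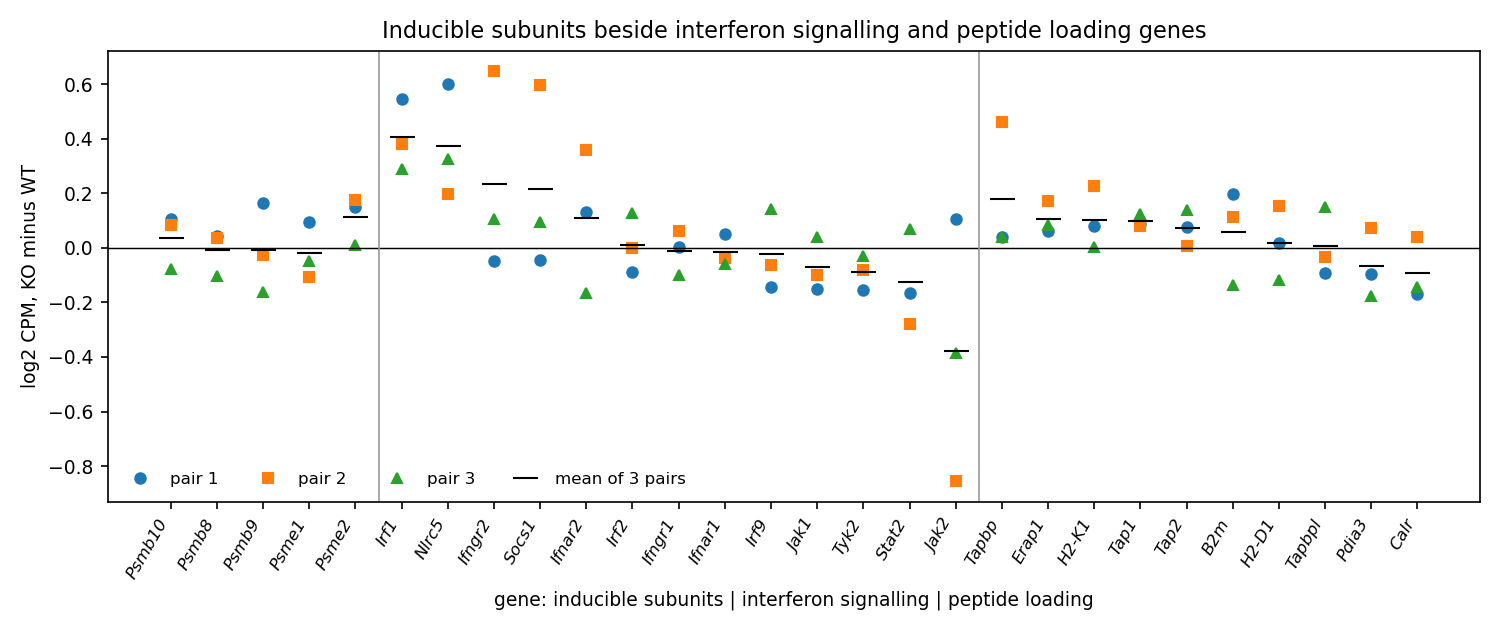
Paired differences in log2 CPM (KO minus WT, vertical axis) for pairs 1 (circles), 2 (squares) and 3 (triangles), with their mean as a bar, for the 5 inducible subunits, 13 interferon signalling genes and 10 peptide loading genes. Irf1 and Nlrc5 lie above 0 in all pairs, and the means of the inducible subunits lie between -0.02 and 0.11.

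Ubiquitin itself is encoded by several genes. Of 5 genes for ubiquitin and its activating enzymes 0 passed 5% FDR in limma. At an unadjusted p under 0.05, 1 was higher and 1 lower (4.16% and 4.66% of all tested genes). Ubb, a stress-responsive polyubiquitin gene, read 9.38, 9.51 and 9.56 log2 CPM in WT and 9.33, 9.21 and 9.15 in KO, lower in all pairs (-0.25 ± 0.18; adjusted p = 0.0694). It passed without pair 1 (-0.35; adjusted p = 0.00616) and when genes of any level were tested (adjusted p = 0.0325). Rps27a, which fuses ubiquitin to a ribosomal protein, was higher in all pairs by 0.15 ± 0.04 (adjusted p = 0.421). Uba1, the main activating enzyme, differed by 0.085 and Uba6, the other activating enzyme, by 0.10. Reads of ubiquitin repeats may be split among near-identical copies, so these values are uncertain.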

How the data were processed

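Libraries were made from messenger RNA of sorted germinal centre B cells, 3 KO and 3 WT. Reads had been handled with STAR 2.6.1a on mm10, Subread 2.0.1 with featureCounts, Trim Galore 0.6.5, limma and FastQC 0.11.7, as the submitters' processing notes list them without settings. The deposited values are log2 CPM, as worked out from the values: linear values sum to between 997617 and 1000513 per library, and differences between replicate numbers are gone. Equal pair sums fix the correlation of same-numbered libraries, so the values cannot show whether the numbers pair samples, and the number was kept as a block. The depth of single libraries is unknown.

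The KO to WT contrast was fitted in R 4.3.3 with limma 3.58.1 (genotype and replicate number, variance trend, robust moderation, two-sided, Benjamini-Hochberg over all tested genes, 5% FDR). Tested were the 10133 genes whose log2 CPM averaged at least 0 (a geometric mean of 1 CPM) and varied. The model has 2 residual and a median of 81.2 prior degrees of freedom per gene, so most of a gene's spread was taken from other genes; for 1 gene alone an exact sign-flip test over 3 pairs cannot go below 0.25. The fit was tested on simulated data with errors drawn independently for each gene. That simulation did not cover differences shared by many genes of a pair, such as the trend over length. Fold changes are log2 differences with the SD over pairs. Lengths and coordinates are from GENCODE vM21 (GRCm38, as mm10), which matched 98.4% of symbols and all 49 members; the length is that of the principal transcript. Of the members, 9 share exon bases with another listed gene. Promoters are from RefSeq.

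Members, lists and settings were chosen with earlier results of these data known. Named in full are the inducible genes, their counterparts, activators, inhibitor and the member of each role with the smallest p, and up to 4 genes per list with the smallest p. Other settings tried are no block, no trend, non-robust moderation, no filter or 4 CPM, log2(CPM + 1), centred libraries, each pair left out and, added later, removal of a length trend. Some genes of the lists are not reported here.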

Additional observations from a re-analysis of the deposited data

How the results depend on the processing

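No member was called under any of the 11 other settings, and the smallest adjusted p of a member was 0.0799, for Psmc1 without the replicate block. The inducible less other difference, taken as the mean over pairs, stayed positive, between 0.0175 and 0.045 as pairs were left out in turn. On median fold changes it was not positive (-0.008 for the inducible genes, -0.0065 for the other members). The mean over pairs was within its spread without pair 1 or pair 2. It was 0.045 ± 0.005 without pair 3, the pair of opposite sign (n = 2 pairs), and 0.035 ± 0.007 with the length trend removed (n = 3 pairs). An SD over so few pairs is no test. The count of members at an unadjusted p under 0.05, which was 1, became 7 without the replicate block (23.3% of all genes), 0 without the variance trend, 2 with the length trend removed (9.06% of all genes), and 0 to 5 as pairs were left out (2 without pair 1, beside 8.71% of all genes, 0 without pair 2, beside 3.95%, and 5 without pair 3, beside 12.03%: Psma5, Psmc1, Psme2, Psmg1 and Psmg4). Of all genes 17 were called higher and 10 lower; these became 99 and 43 without the replicate block, 0 and 0 without the variance trend, 7 and 5 with non-robust moderation, 42 and 53 with no filter on low values, and 3 and 1 with the length trend removed. Leaving out pairs gave 4 to 28 higher and 7 to 109 lower, the lowest of both without pair 2. The block changed no call of a member; Rps27a and Irf1 were called without it. The cause of these changes was not tested. Precision is limited by level: a member's 95% interval reached from 0.115 to 0.262 to either side of its fold change.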
